A study of Physcomitrium patens with 47 samples.

Results

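The genes described here are 150 genes of the moss Physcomitrium patens whose mRNA was lowest 2 h after lights on (zeitgeber time 2, ZT2) in wild-type (WT) plants, with higher levels at ZT0 and ZT6. They were chosen from the WT libraries alone, out of the 32926 genes of the deposited count table. Levels were taken as log2(CPM + 1), where CPM is a gene's count scaled to a common library total, averaged over the WT libraries of each time. Genes with the ID prefixes Pp3c2, Pp3c25 and Pp3c27 were left out, as were genes with a WT mean of 1000 CPM or more and genes whose highest WT group mean was under 10 CPM, which left 11600. In 636 of these, ZT0 and ZT6 each exceeded ZT2 by at least 0.5, and the 150 with the largest smaller difference are the members. The WT values thus chose the members and are given below as a description. The knockout libraries were not used by the choice, and they carry the tests.

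Libraries came from COX11 KO plants, NDUFA5 KO plants and WT plants at ZT0, ZT2 and ZT6. In each knockout, part of the gene was interrupted by a cassette for antibiotic resistance through homologous recombination, and 2 independent lines were used for each, 150 and 152 for COX11 and 46 and 48 for NDUFA5. COX11 KO had 5 libraries at each time, NDUFA5 KO had 4 at ZT0 and 5 each at ZT2 and ZT6, and WT had 6 at ZT0, 4 at ZT2 and 8 at ZT6. All plants were mixtures of protonema (branching filaments) and young gametophores (leafy shoots), grown on a filter over liquid medium in closed boxes with days of 12 h light and 12 h dark. The ZT0 boxes had been kept under foil from the evening before and were frozen in dim green light, whereas those for ZT2 and ZT6 were frozen with the chamber lights on. ZT0 is therefore the end of the night, and ZT2 and ZT6 are times in the light. Tissue is mixed and was measured in bulk, so fewer cells of a type and less RNA per cell cannot be told apart.

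In plants, mRNA levels over the day follow the circadian clock, the light itself and the supply of sugars, which photosynthesis provides by day and stored starch by night. Many genes are therefore switched on at dawn, and many others are held at night or later in the day. COX11 is needed to assemble cytochrome c oxidase, the complex that passes electrons to oxygen at the end of the mitochondrial respiratory chain. NDUFA5 is a subunit of complex I, where electrons from NADH enter that chain. Respiration is the main source of ATP in the dark, and it runs beside photosynthesis in the light.

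The library kit reads the 3′ end of polyadenylated transcripts, and counts therefore do not scale with gene length. Counts in genes lay between 4060158 and 10349604 per library, with a median of 5659267. Neither the deposited table nor the reference names the gene IDs, so members are given by ID, their roles are not described, and COX11 and NDUFA5 were not checked by name. Sample codes begin with A or Z, a letter whose meaning no label gives. All 6 WT libraries at ZT0 have the letter Z and all 4 at ZT2 the letter A, so in WT the trough and the letter cannot be told apart. Knockout groups mix the letters, except COX11 KO at ZT0 with 5 Z libraries. In NDUFA5 KO at ZT2 the letter follows the line, with 3 Z libraries of line 46 and 2 A libraries of line 48. The labels do not say that replicates came from separate cultures, so p-values speak only of the spread among libraries, part of which may be technical.

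In WT, the median member stood at 5.43 on the log2(CPM + 1) scale at ZT0, 3.46 at ZT2 and 4.78 at ZT6. The ZT0 level exceeded the ZT2 level by 1.04 to 4.67, with a median of 1.81, and the ZT6 level exceeded it by 1.04 to 4.0, with a median of 1.30. The night side was the higher side for most members: 113 stood higher at ZT0 than at ZT6, and 37 stood higher at ZT6. In 124 members every WT library at ZT2 lay below every WT library at ZT0 and ZT6. The choice from these same libraries favours such a separation, and the share over all genes was not computed. Members had a median WT mean of 32.2 CPM, against 26.7 CPM for all genes past the level limits. The last member, Pp3c26_10860, had a smaller difference of 1.038, and the next gene, Pp3c3_16880, which is no member, had 1.036, so the border falls inside a continuous range.

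From here on, a library's values are CPM after its total was scaled by TMM, edgeR's normalization. The deepest trough was that of Pp3c9_7820. In COX11 KO it had 30.7, 44.0, 45, 45 and 47.8 CPM at ZT0, 0.644, 3.79, 4.38, 5.48 and 11.4 CPM at ZT2 and 25.5, 27.2, 33, 36 and 50.3 CPM at ZT6. In NDUFA5 KO it had 6.75, 7.29, 7.68 and 10.2 CPM at ZT0, 0.933, 1.14, 1.45, 2.76 and 6.12 CPM at ZT2 and 15, 16.1, 21.6, 28.4 and 33.8 CPM at ZT6. In WT it lay between 29.1 and 218 with a median of 96.4 CPM at ZT0, at 2.31, 5.76, 5.78 and 7.64 CPM at ZT2, and between 56.6 and 181 with a median of 101 CPM at ZT6. None of the WT values at ZT2 reached those at the other times. The trough was thus seen in all genotypes without overlap of ZT2 with the other times, but in NDUFA5 KO all 4 libraries at ZT0 were below every library of the other genotypes at that time. At ZT2 against ZT0 the log2 fold change was -3.04 (SE 0.44, edgeR adjusted p = 2.81e-07) in COX11 KO and -1.65 (SE 0.56, edgeR adjusted p = 0.0104) in NDUFA5 KO.

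Pp3c10_10290 had the next largest WT trough. COX11 KO libraries had 235, 261, 277, 302 and 305 CPM at ZT0, 17.2, 21.7, 29.7, 58.1 and 62.1 CPM at ZT2 and 164, 181, 249.6, 259 and 320.0 CPM at ZT6. The NDUFA5 KO values were 22.5, 23.9, 24.3 and 32.3 CPM at ZT0, 29.6, 33.6, 36.8, 47.4 and 69.8 CPM at ZT2 and 181, 197, 223, 246 and 266 CPM at ZT6. In WT it lay between 123 and 199 with a median of 165 CPM at ZT0, at 18.7, 19.2, 19.5 and 19.9 CPM at ZT2, and between 199 and 349 with a median of 272 CPM at ZT6. COX11 KO kept the trough, but its mean at ZT2 was 37.8 CPM, against 19.3 CPM in WT. The ZT0 and ZT6 libraries of COX11 KO overlapped, where the WT median was higher at ZT6. In NDUFA5 KO the night libraries overlapped the ZT2 libraries at the low end and only ZT6 stood out. At ZT2 against ZT0 it fell in COX11 KO, with a log2 fold change of -2.87 (SE 0.25, edgeR adjusted p = 7.07e-13), and rose in NDUFA5 KO, with 0.76 (SE 0.26, edgeR adjusted p = 0.0103).

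The most abundant members over WT were Pp3c10_18330 and Pp3c24_6320. Pp3c10_18330 had 309, 319.9, 369, 402 and 408 CPM in COX11 KO at ZT0, 104, 121, 126, 149.3 and 153 CPM at ZT2 and 196, 221, 249, 259 and 422 CPM at ZT6. In NDUFA5 KO it had 191, 221, 225 and 248 CPM at ZT0, 88.5, 97.4, 112, 128 and 177 CPM at ZT2 and 179, 371, 406, 462 and 463 CPM at ZT6. In WT it lay between 343 and 533 with a median of 479 CPM at ZT0, at 144, 146, 169 and 188 CPM at ZT2, and between 374 and 518 with a median of 424 CPM at ZT6. ZT2 was the lowest time in each genotype, and the ZT0 libraries of NDUFA5 KO were below all those of COX11 KO. Pp3c24_6320 had 269.6, 297, 328, 395 and 400.5 CPM in COX11 KO at ZT0, 40.8, 42, 43.0, 69.1 and 77.6 CPM at ZT2 and 117, 131, 163, 169 and 181 CPM at ZT6. In NDUFA5 KO it had 54.3, 60.4, 69.3 and 76.0 CPM at ZT0, 53.6, 63.5, 73.1, 92.7 and 127 CPM at ZT2 and 287, 288, 292, 306 and 359 CPM at ZT6. In WT the range at ZT0 was between 262 and 478 with a median of 389.8 CPM, the ZT2 values were 45.9, 48.3, 56.3 and 57.5 CPM, and the range at ZT6 was between 227 and 404 with a median of 314 CPM. Here too the NDUFA5 KO night level was low: it overlapped the ZT2 level, while ZT6 was above both.

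The members were spread over the genome as far as the IDs show it. Their IDs carry 24 numbered prefixes and 1 scaffold prefix, and no prefix held more than 10 members. Only 4 pairs of members have neighbouring IDs. In 3 of these, Pp3c3_36760 with Pp3c3_36775, Pp3c4_7960 with Pp3c4_7965 and Pp3c9_2770 with Pp3c9_2771, the total counts of the pair differ by under 2% and include fractions, so these IDs share reads and are not independent members. Taking each such pair once leaves 147 members, and shares of members called then moved by under 1 percentage point in every comparison. In all, 10 members had fractional counts, and their values are uncertain to that extent.

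**Figure D1:**
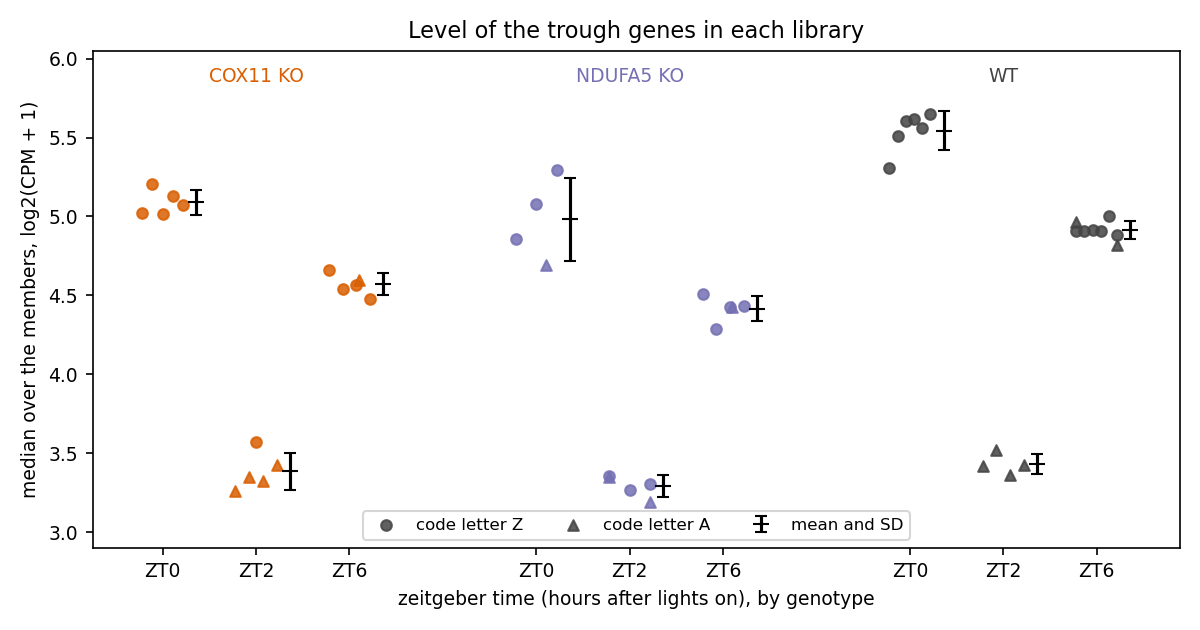
Median over the 150 members of log2(CPM + 1) in each library, with CPM scaled by TMM, by genotype and zeitgeber time. Circles and triangles are libraries with code letters Z and A, and bars are group means with SD. ZT2 libraries lie between 3.19 and 3.57 in all genotypes, and ZT0 and ZT6 libraries at 4.29 or above. The WT values chose the members.

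The trough at ZT2 was present in the member median of every knockout group, as the plot by library shows. COX11 KO averaged 5.09 ± 0.08 at ZT0, 3.39 ± 0.12 at ZT2 and 4.57 ± 0.07 at ZT6 on the log2 scale (SD, n = 5 each). NDUFA5 KO averaged 4.98 ± 0.26 at ZT0 (n = 4), 3.29 ± 0.07 at ZT2 and 4.42 ± 0.08 at ZT6 (n = 5 each). WT averaged 5.54 ± 0.12 (n = 6), 3.43 ± 0.07 (n = 4) and 4.91 ± 0.05 (n = 8). At ZT0 the NDUFA5 KO libraries were uneven, with 4.69 and 4.86 in the libraries of line 46 and 5.08 and 5.29 in those of line 48. Members together held 1.04%, 0.301% and 0.665% of the counts in COX11 KO at the 3 times, 0.846%, 0.325% and 0.662% in NDUFA5 KO, and 1.13%, 0.275% and 0.794% in WT.

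Within the knockouts the low level at ZT2 was seen in libraries of either letter. At ZT2, NDUFA5 KO libraries lay at 3.19 to 3.35 for letter A and 3.27 to 3.36 for letter Z, and COX11 KO libraries at 3.26 to 3.43 for A and 3.57 for the only Z library. At ZT6, letter A libraries lay at 4.60 in COX11 KO and 4.43 in NDUFA5 KO, within the Z ranges of 4.48 to 4.66 and 4.29 to 4.51. At ZT0 the only letter A library of NDUFA5 KO lay at 4.69, below the Z libraries at 4.86 to 5.29, and COX11 KO has no letter A library there. WT at ZT6 lay at 4.82 to 4.97 for letter A and 4.89 to 5.00 for letter Z.

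In COX11 KO, most members fell after lights on and rose again by ZT6. At ZT2 against ZT0, 142 of the 150 members were lower at a false discovery rate of 0.05 in edgeR's quasi-likelihood test, where 23.7% of the 18460 genes tested were lower. No member was higher, where 22.7% of all genes were. With an unadjusted p under 0.05 there were 0 higher members, and DESeq2 also called 0. The median log2 fold change of the members was -1.81, against -0.03 for all genes. Called members that fell by at least 2-fold numbered 120, and the share of all genes that did so was not computed. Quartiles were -2.34 and -1.28 for the members and -0.47 and 0.42 for all genes. The share called in either direction was 94.7% of members and 46.4% of all genes. At ZT6 against ZT2, 121 members were higher, where 17.7% of all genes were, and the median was 1.20. No member was lower, where 19% of all genes were. An unadjusted p under 0.05 was reached by 1 lower member, and DESeq2 called 0 lower. In either direction 80.7% of members were called, where 36.7% of all genes were. Within letter Z, with 1 library at ZT2, 92 members (61.3%) were lower at ZT2 against ZT0, where 9.64% of all genes were, and the median was -1.58. In the same libraries 47 members (31.3%) were higher at ZT6 against ZT2, where 2.65% of all genes were, with a median of 1.07. Within letter A, 104 members (69.3%) were higher at ZT6 against ZT2, where 10.8% of all genes were, with a median of 1.30, and there is no ZT0 library.

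Pp3c20_22930 had the largest fall at ZT2 against ZT0 and the largest rise at ZT6 against ZT2 in COX11 KO among the members that met the rule for named genes. It had 48.9, 69.4, 107, 126 and 139.6 CPM at ZT0, 1.46, 1.52, 3.21, 3.35 and 4.02 CPM at ZT2 and 35, 44.8, 51.6, 53.2 and 73.6 CPM at ZT6. ZT2 lay far below both other times with no overlap. Its log2 fold change was -5.18 (SE 0.59, edgeR adjusted p = 1.34e-09) at ZT2 against ZT0 and 4.25 (SE 0.58, edgeR adjusted p = 1.92e-07) at ZT6 against ZT2. In NDUFA5 KO it had 56.2, 61.5, 238 and 279 CPM at ZT0, 1.45, 2.24, 3.42, 10.6 and 19 CPM at ZT2 and 20.7, 36.3, 44.0, 52.0 and 66.5 CPM at ZT6, and in WT between 69.1 and 419 with a median of 128 CPM at ZT0, 6.32, 7.38, 10.6 and 12.4 CPM at ZT2 and between 36.8 and 122 with a median of 79 CPM at ZT6. The groups of the trough did not overlap there either, but the 2 lines of NDUFA5 KO were apart at ZT0, with line 48 at the high values.

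Pp3c9_6250 had 60.5, 63.3, 65.8, 70.7 and 96.0 CPM in COX11 KO at ZT0, 0.728, 2.19, 2.43, 3.65 and 7.57 CPM at ZT2 and 9.39, 9.94, 11.3, 12.9 and 13.2 CPM at ZT6. It fell after lights on, with a log2 fold change of -4.44 (SE 0.64, edgeR adjusted p = 2.49e-07), and its ZT6 libraries were between the other times with no overlap. Pp3c26_9830, a gene of low level, had 0, 0.458, 0.949, 2.47 and 2.86 CPM in COX11 KO at ZT0, 0, 0.146, 0.146, 0.456 and 0.913 CPM at ZT2 and 1.91, 2.47, 3.63, 3.83 and 6.046 CPM at ZT6. Its rise was on the later side, with a log2 fold change of 3.35 (SE 0.95, edgeR adjusted p = 0.00459) at ZT6 against ZT2 and overlapping libraries at ZT0 and ZT2. Within letter Z this rise was 2.64 with an adjusted p of 0.447, so the call ended there.

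The recovery by ZT6 was partial for many members. At ZT6 against ZT0 in COX11 KO, 75 members were lower, where 27.1% of all genes were, and 10 were higher, where 24% were, with a median of -0.63. The total called was 56.7% of members, near the 51.1% of all genes, so this total is no result about the members. This followed the WT shape in part: of the 113 members that stood higher at ZT0 than at ZT6 in WT, 69 were lower and 4 higher, and of the 37 others 6 were lower and 6 higher. Within letter Z, 74 members were lower, where 24.1% of all genes were, and 6 higher, where 21.4% were. Pp3c7_200 had 57.9, 99.1, 138, 149.9 and 182 CPM at ZT0, 7.16, 7.31, 7.44, 8.16 and 10.1 CPM at ZT2 and 8.22, 10.6, 11.2, 12.7 and 16 CPM at ZT6. The times in the light overlapped and the night level stood alone, and the log2 fold change at ZT6 against ZT0 was -3.42 (SE 0.38, edgeR adjusted p = 6.59e-10). Pp3c4_16570 had 96 counts over the 5 COX11 KO libraries at ZT0, 8 at ZT2 and 1 at ZT6, and the ratio of ZT0 to ZT6 was 102 with a 95% counting interval of 17.9 to 4072. No return at ZT6 was seen for this member in COX11 KO. In the other direction, Pp3c24_9920 had 6.32, 7.87, 10.8, 12.2 and 19.7 CPM at ZT0, 8.62, 10.1, 11.5, 11.5 and 12.6 CPM at ZT2 and 27.6, 27.9, 31.9, 36.9 and 37.2 CPM at ZT6. It had no night side in COX11 KO, since ZT0 and ZT2 overlapped, and it was higher at ZT6 than at ZT0, with a log2 fold change of 1.53 (SE 0.26, edgeR adjusted p = 4.43e-06). Pp3c1_25950 had 5.72, 5.86, 5.95, 6.81 and 8.77 CPM at ZT0, 2.89, 3.07, 3.22, 3.495 and 4.40 CPM at ZT2 and 8.84, 9.94, 10.7, 11.7 and 13.6 CPM at ZT6, with no overlap of ZT2 with the other times. Its log2 fold change at ZT6 against ZT0 was 0.73 (SE 0.17, edgeR adjusted p = 0.000440).

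In NDUFA5 KO most members also rose between ZT2 and ZT6, whereas after lights on some members rose beside the many that fell. At ZT2 against ZT0, 111 members were lower, where 29.1% of all genes were, and 11 were higher, where 31.1% were. The median log2 fold change was -1.28, against 0.06 for all genes, and 81.3% of members were called in either direction, where 60.2% of all genes were. At ZT6 against ZT2, 114 members were higher, where 24.1% of all genes were, and 1 was lower, where 27.2% were, with a median of 1.22. In total 76.7% of members were called, against 51.3% of all genes. With library totals in place of TMM, 94 members (62.7%) were lower at ZT2 against ZT0, where 19% of all genes were, and 13 (8.67%) were higher, where 43% were. The member median was then -0.99, and the median of all genes moved to 0.35. Within letter Z, 102 members were lower at ZT2 against ZT0, where 24.8% of all genes were, and 11 were higher, where 24.6% were. At ZT6 against ZT2, 109 were higher there, where 21.3% of all genes were, and 4 lower, where 23.6% were. All letter Z libraries at ZT2 are of line 46, while those at ZT0 and ZT6 are of both lines. In letter A, ZT2 is line 48, and ZT0 and ZT6 are line 46. Time is thus mixed with line within letter Z, and within letter A the 2 cannot be told apart. Within letter A, with 1 library each at ZT0 and ZT6, 86 members were lower at ZT2 against ZT0, where 21.4% of all genes were, and 6 were higher, where 20.7% were. In those libraries 91 were higher at ZT6 against ZT2, where 14.2% of all genes were, and 1 lower, where 13.6% were.

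**Figure D2:**
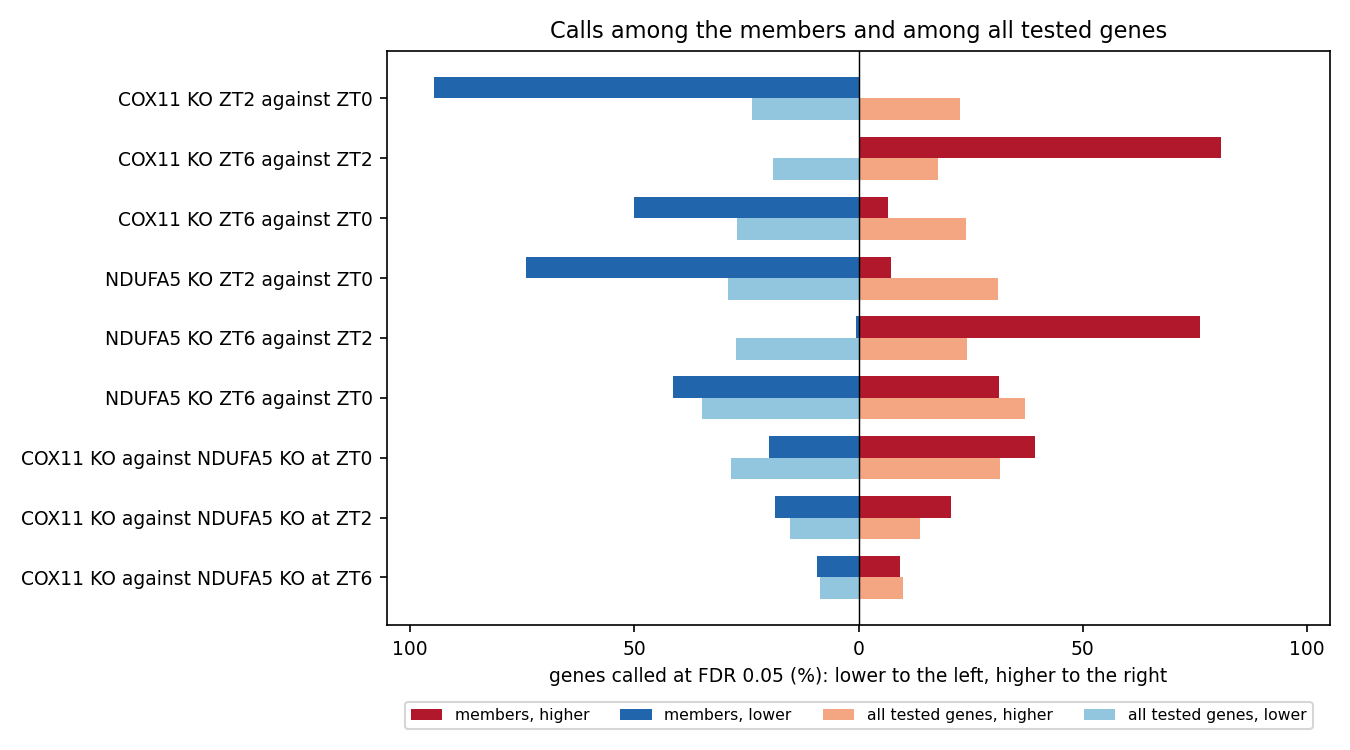
Share of genes called at a false discovery rate of 0.05 in each comparison, for the 150 members (dark bars) and all tested genes (pale bars). Bars to the left are lower and bars to the right higher in the group named first. In COX11 KO at ZT2 against ZT0, 94.7% of members were lower, against 23.7% of all genes.

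Pp3c15_23190 showed the steepest fall in NDUFA5 KO among the named members. NDUFA5 KO libraries had 251, 272, 278 and 293 CPM at ZT0, 1.38, 1.61, 3.10, 5.41 and 7.07 CPM at ZT2 and 4.46, 7.51, 7.62, 8.21 and 13.5 CPM at ZT6. ZT2 and ZT6 overlapped and were both far below the night. The log2 fold change was -6.21 (SE 0.29, edgeR adjusted p = 1.22e-21) at ZT2 against ZT0 and -5.06 (SE 0.27, edgeR adjusted p = 2.88e-20) at ZT6 against ZT0. COX11 KO had 51.5, 60.5, 64, 65.9 and 83.6 CPM at ZT0, 3.49, 4.11, 5.10, 5.31 and 5.846 CPM at ZT2 and 24.8, 27.7, 30.7, 38.2 and 60.1 CPM at ZT6, and WT lay between 77.1 and 110.1 with a median of 98.6 CPM at ZT0, at 3.38, 3.39, 4.21 and 4.65 CPM at ZT2 and between 7.78 and 16.5 with a median of 10.5 CPM at ZT6. Every NDUFA5 KO library at ZT0 was above every other library of this gene. Pp3c3_31700 had the same order, with 246, 249, 262 and 274 CPM in NDUFA5 KO at ZT0, 2.18, 2.44, 2.61, 4.03 and 7.25 CPM at ZT2 and 3.63, 6.23, 8.61, 8.97 and 11.5 CPM at ZT6. COX11 KO had 9.96, 26, 27.2, 29 and 29.3 CPM at ZT0, 0.457, 1.29, 1.602, 1.97 and 2.63 CPM at ZT2 and 5.58, 8.52, 8.90, 10.5 and 11.4 CPM at ZT6, and WT lay between 7.66 and 19.3 with a median of 16 CPM at ZT0, at 0.533, 1.09, 1.20 and 2.23 CPM at ZT2 and between 3.15 and 4.93 with a median of 3.52 CPM at ZT6. In NDUFA5 KO it fell, with a log2 fold change of -6.11 (SE 0.32, edgeR adjusted p = 3.72e-20) at ZT2 against ZT0, and at ZT6 against ZT0 the value was -5.05 (SE 0.30, edgeR adjusted p = 7.22e-19).

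Other members were at their lowest at night in NDUFA5 KO. Pp3c1_13060 had 1 count over the 4 NDUFA5 KO libraries at ZT0, 160 over the 5 at ZT2 and 77 over the 5 at ZT6. The ratio to ZT0 was 124 at ZT2 (95% counting interval 22 to 4941) and 58.2 at ZT6 (10.1 to 2329), and edgeR adjusted p was 6.24e-06 and 0.000287. Its ZT2 libraries were uneven, with 13.4, 2.44 and 11.2 CPM in line 46 and 0.805 and 1.04 CPM in line 48. Within letter A the log2 fold change at ZT2 against ZT0 was 2.05 and the call ended. There ZT2 is line 48 and ZT0 is 1 library of line 46, so time and line cannot be told apart. Pp3c4_23020 had 176.5, 130.3 and 181 CPM in line 46 and 29.9 and 41.8 CPM in line 48 at ZT2, against 13.1, 14.9, 23 and 25.7 CPM in NDUFA5 KO at ZT0. All ZT2 libraries were above those at ZT0, by a log2 fold change of 2.53 (SE 0.39, edgeR adjusted p = 4.68e-07), and the lines were apart. Pp3c23_20370 had 0.231, 0.624, 0.724 and 1.01 CPM at ZT0, 0.966, 1.04, 1.47, 4.11 and 5.62 CPM at ZT2 and 6.36, 10.1, 10.5, 11.7 and 12.5 CPM at ZT6. It was highest at ZT6 with no overlap, and at ZT6 against ZT0 the log2 fold change was 4.07 (SE 0.51, edgeR adjusted p = 2.63e-09).

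On the day side, Pp3c18_3460 had 0.202, 0.241, 1.66 and 1.85 CPM in NDUFA5 KO at ZT0, 0.483, 0.560, 0.725, 0.815 and 1.21 CPM at ZT2 and 6.60, 6.95, 9.43, 11.7 and 13.3 CPM at ZT6. Only ZT6 stood out, and the log2 fold change at ZT6 against ZT2 was 3.62 (SE 0.75, edgeR adjusted p = 8.49e-05). Pp3c4_16840 had 0.241, 1.01, 1.27 and 3.12 CPM at ZT0, 0.345, 0.725, 0.815, 1.12 and 1.29 CPM at ZT2 and 4.79, 6.55, 7.28, 10.5 and 11.1 CPM at ZT6, with the same order and a log2 fold change of 3.19 (SE 0.75, edgeR adjusted p = 0.000412) at ZT6 against ZT2. Pp3c10_13170 was the only member called lower at ZT6 than at ZT2. Its NDUFA5 KO libraries had 26.6, 34.9, 36, 36.8 and 43.2 CPM at ZT6, against 92.7, 90.9 and 95.8 CPM in line 46 and 32.4 and 54.4 CPM in line 48 at ZT2. The ZT6 range overlapped line 48 and lay below line 46, and the log2 fold change was -1.04 (SE 0.21, edgeR adjusted p = 4.54e-05). Within letter A it was -0.67 and the call ended. There ZT2 is line 48 and ZT6 is 1 library of line 46, so time and line cannot be told apart.

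ZT6 against ZT0 divided the members in NDUFA5 KO, as it divided all genes. Of the 150, 62 were lower, where 34.9% of all genes were, and 47 were higher, where 37.1% were, with a median of -0.25 against 0.08 for all genes. The share of members called, 72.7%, was near the 72% of all genes, so this count is no result about the members. The split depends on the scaling: with library totals in place of TMM, 50 members (33.3%) were lower and 59 (39.3%) higher with a median of 0.11, where 24.5% and 47.9% of all genes were lower and higher, and the median of all genes moved to 0.43. Of the 113 members that were higher at night in WT, 56 were lower at ZT6 than at ZT0 and 31 were higher, and of the 37 others 6 were lower and 16 higher. Within letter Z, 60 were lower and 47 higher, where 32.2% and 34.2% of all genes were. Within letter A the counts were 39 lower and 37 higher, where 23.3% and 24% of all genes were.

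**Figure D3:**
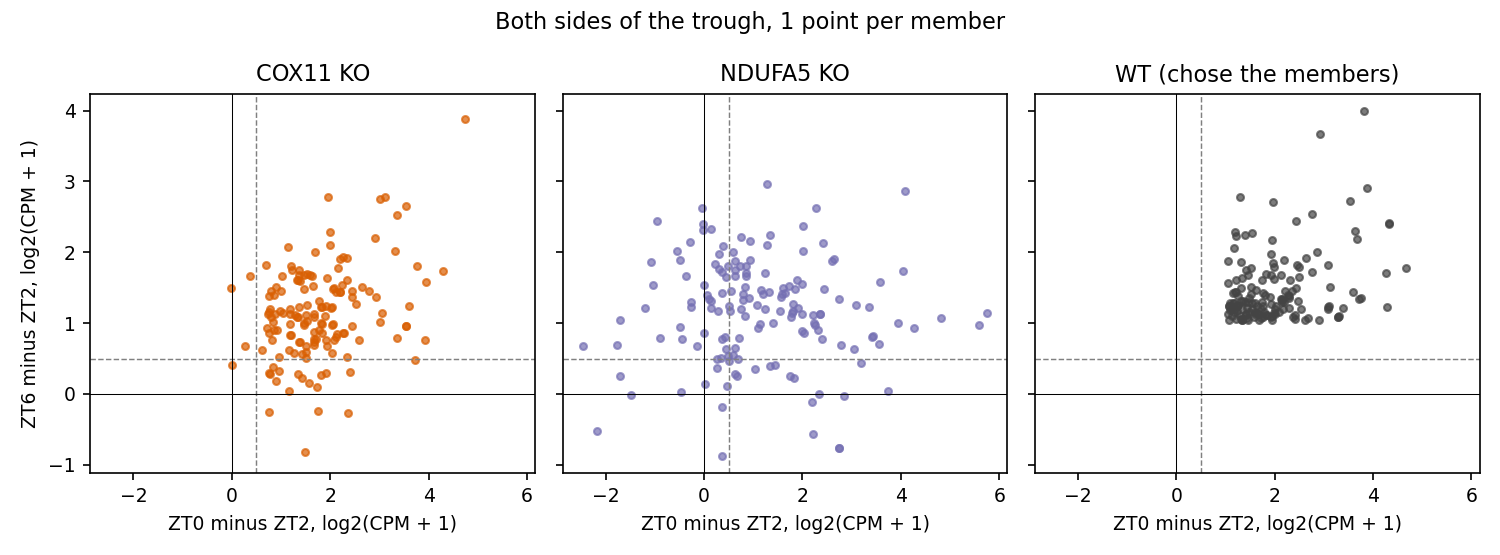
Difference of mean log2(CPM + 1), by library total, between ZT0 and ZT2 (x axis) and between ZT6 and ZT2 (y axis) for each of the 150 members in COX11 KO, NDUFA5 KO and WT. Dashed lines mark 0.5, the least difference the choice in WT required. In COX11 KO 128 members lie past both lines and in NDUFA5 KO 82. Left of 0 on the x axis are 24 in NDUFA5 KO and 1 in COX11 KO, and the share of all genes there was not computed.

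The same arithmetic that chose the members in WT was applied to the knockouts, with no test. In COX11 KO, 128 members (85.3%) had ZT0 and ZT6 both at least 0.5 above ZT2, where 5.98% of the 11600 genes past the WT level limits did. In NDUFA5 KO, 82 members (54.7%) did, where 3.54% of those genes did. At a least difference of 1, 71 members (47.3%) passed in COX11 KO, where 1.24% of those genes did, and 45 (30%) in NDUFA5 KO, where 0.931% did. The sides differed, as the plot of both differences shows. On the ZT6 side 131 members passed in COX11 KO and 123 in NDUFA5 KO. The ZT0 side passed in 146 members in COX11 KO and 99 in NDUFA5 KO. Shares of the 11600 genes passing a single side, or below 0 on it, were not computed with either scaling. Counts for a single side are therefore no result about the members. The median ZT0 minus ZT2 difference was 1.67 in COX11 KO, 0.89 in NDUFA5 KO and 1.81 in WT. The median ZT6 minus ZT2 difference was 1.11 in COX11 KO, 1.21 in NDUFA5 KO and 1.30 in WT. These values use library totals, and part of the gap on the ZT0 side goes with that scaling. Over the 11600 genes the median ZT0 minus ZT2 difference in NDUFA5 KO was -0.23 with library totals and 0.04 with TMM. With TMM, 127 members passed in COX11 KO and 91 (60.7%) in NDUFA5 KO, where 5.82% and 4.45% of the 11600 genes did. The ZT0 side then passed in 146 members in COX11 KO and 116 in NDUFA5 KO, with medians of 1.64 and 1.17, and 20 members were below 0 on that side in NDUFA5 KO. The groupings and correlations that follow use library totals. Both knockouts passed in 75 members, and 15 members passed in neither. Of the members passing in COX11 KO, 58.6% passed in NDUFA5 KO, against 54.7% of all members. Of those passing in NDUFA5 KO, 91.5% passed in COX11 KO, against 85.3% of all members.

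Among the members, sizes were related across genotypes to a moderate degree. Over the 150 members, which are genes and not replicates, Pearson's r of the ZT0 minus ZT2 difference was 0.69 between COX11 KO and WT, 0.51 between NDUFA5 KO and WT, and 0.51 between the knockouts. For the ZT6 minus ZT2 difference it was 0.47, 0.32 and 0.36 for the same pairs. Both differences of a genotype share its ZT2 libraries. The WT differences chose the members and are all 1.04 or more, so values with WT are not independent of the choice. No r over all genes was computed, so these values are no result about the members. Among the 113 members higher at night in WT, 95 passed in COX11 KO and 64 in NDUFA5 KO, and among the 37 others 33 and 18 passed.

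Grouped by their own NDUFA5 KO values, 41 members kept only the ZT6 side in that knockout, 17 only the ZT0 side and 10 neither. Shares of all genes in these groups were not computed, so the counts are no result about the members. The 41 members had a median level of 3.27 at ZT0, 3.16 at ZT2 and 4.30 at ZT6 in NDUFA5 KO on the log2(CPM + 1) scale. Their medians at the same times were 4.57, 3.21 and 4.25 in COX11 KO and 4.79, 3.12 and 4.52 in WT. The night level is where NDUFA5 KO stands apart for them, as the grouping requires, while the levels at ZT2 and ZT6 were close to those of COX11 KO. The 17 members that kept only the ZT0 side had medians of 6.35, 4.17 and 3.92 in NDUFA5 KO, 5.13, 2.42 and 3.77 in COX11 KO and 5.47, 3.31 and 4.45 in WT. Their NDUFA5 KO medians were the highest at ZT0 and at ZT2, where the grouping by these same values favours high levels.

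The knockouts were also compared directly, and more members differed at ZT0 than at ZT2 or ZT6. COX11 KO against NDUFA5 KO at ZT0 called 59 members higher, where 31.6% of all genes were, and 30 lower, where 28.4% were, with a median log2 fold change of 0.35 against 0.09 for all genes. At ZT2, 31 members were higher, where 13.6% of all genes were, and 28 lower, where 15.2% were, with a median of 0.05. At ZT6, 14 were higher and 14 lower, where 9.91% and 8.49% of all genes were, with a median of 0.07. The share of members called was 59.3% at ZT0 and 18.7% at ZT6, near the 60% and 18.4% of all genes, so these totals are no result about the members. At ZT2 it was 39.3%, against 28.8% of all genes. With library totals in place of TMM, 76 members (50.7%) were higher and 21 (14%) lower at ZT0, near the 47.9% and 15.5% of all genes, whose median moved to 0.48. At ZT2 under that scaling 37 members (24.7%) were higher and 22 (14.7%) lower, where 18.3% and 10.7% of all genes were. Within letter Z, 55 were higher and 33 lower at ZT0, where 28.6% and 26.4% of all genes were. At ZT2 in that letter 14 were higher (9.33%) and 9 lower (6%), where 3.68% and 3.67% of all genes were, and at ZT6 14 were higher and 15 lower, where 8.31% and 7.34% were. Within letter A, 23 members were higher (15.3%) and 25 lower (16.7%) at ZT2, near the 15.3% and 16.3% of all genes. At ZT6, where each knockout has 1 library of that letter, 1 member was higher, and 0.016% of all genes were.

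**Figure D4:**
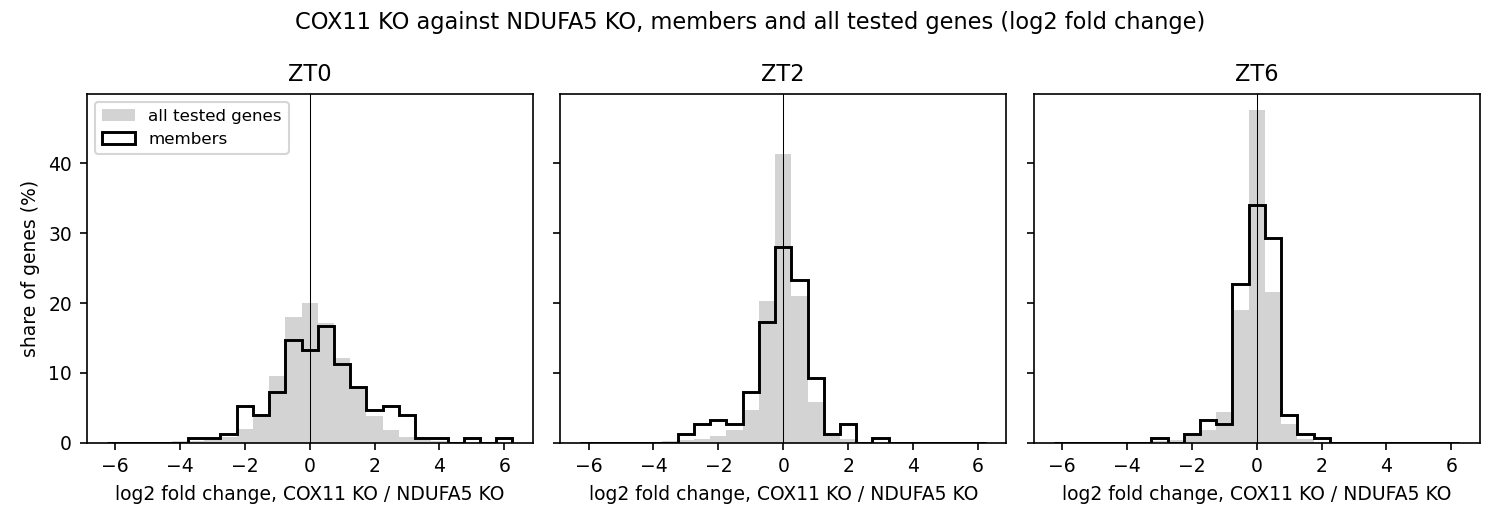
Distribution of the log2 fold change of COX11 KO over NDUFA5 KO at ZT0, ZT2 and ZT6, in bins of 0.5, as a share of the 150 members (line) and of all tested genes (grey). Values past the axis are counted in the end bins. The members spread most at ZT0, from -3.39 to 5.90, with a median of 0.35.

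At ZT0, Pp3c3_31700 and Pp3c3_22990 were lower in COX11 KO. Pp3c3_31700, described above, had a log2 fold change of -3.39 (SE 0.27, edgeR adjusted p = 3.06e-14). Pp3c3_22990 had 3.89, 7.16, 8.77, 14.4 and 16.2 CPM in COX11 KO and 58.7, 68.4, 88.7 and 97.2 CPM in NDUFA5 KO, with no overlap and a log2 fold change of -2.92 (SE 0.36, edgeR adjusted p = 3.47e-09). Pp3c1_13060 and Pp3c23_20370 were higher in COX11 KO. Pp3c1_13060 had 2.86, 3.55, 4.36, 4.50 and 4.81 CPM in COX11 KO, against the 1 count in NDUFA5 KO, a ratio of 87.9 with a 95% counting interval of 15.4 to 3504 (edgeR adjusted p = 4.98e-05). Pp3c23_20370 had 13.8, 14.7, 18, 18.1 and 19.4 CPM in COX11 KO and 0.231, 0.624, 0.724 and 1.01 CPM in NDUFA5 KO, and its log2 fold change was 4.78 (SE 0.50, edgeR adjusted p = 6.56e-11). WT lay between 11.1 and 21.3 with a median of 16 CPM, at the COX11 KO level.

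At ZT2, Pp3c3_22990 had 0.456, 0.457, 2.33, 2.63 and 4.51 CPM in COX11 KO, against 31.6, 15.6 and 26.1 CPM in line 46 and 12.9 and 8.11 CPM in line 48 of NDUFA5 KO. The groups did not overlap, and the log2 fold change was -3.17 (SE 0.42, edgeR adjusted p = 1.44e-07). Pp3c26_9830 had 0, 0.146, 0.146, 0.456 and 0.913 CPM in COX11 KO and 0.560, 0.652, 1.63, 4.35 and 6.56 CPM in NDUFA5 KO, overlapping, with a log2 fold change of -2.98 (SE 0.98, edgeR adjusted p = 0.0183). Without NDUFA5 KO library 48-2 it was -2.38 with an adjusted p of 0.089, and within letter Z it was -1.01 with an adjusted p of 0.861, so this call rests on that library and did not hold within that letter. Pp3c6_5150 had 13.4, 19.9, 21, 25.1 and 38.1 CPM in COX11 KO and 0.560, 1.14, 1.81, 5.15 and 5.87 CPM in NDUFA5 KO, with a log2 fold change of 2.99 (SE 0.42, edgeR adjusted p = 7.18e-07). Pp3c6_5430 had 10.6, 14.6, 15.2, 16.3 and 27.3 CPM in COX11 KO and 3.54, 3.92, 4.66, 4.71 and 4.89 CPM in NDUFA5 KO, with a log2 fold change of 1.95 (SE 0.30, edgeR adjusted p = 3.97e-06). For these last members the knockouts did not overlap, and COX11 KO was the higher.

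At ZT6, Pp3c4_3150 had 3.63, 4.05, 4.62, 5.74 and 6.201 CPM in COX11 KO and 12.3, 16, 16.5, 18.8 and 20.9 CPM in NDUFA5 KO, with a log2 fold change of -1.79 (SE 0.25, edgeR adjusted p = 1.61e-06). Pp3c18_3460 had 0.765, 1.15, 2.29, 2.44 and 4.19 CPM in COX11 KO and 6.60, 6.95, 9.43, 11.7 and 13.3 CPM in NDUFA5 KO, with a log2 fold change of -2.11 (SE 0.64, edgeR adjusted p = 0.0171). Neither gene overlapped between the knockouts, and WT, with medians of 19.1 CPM for Pp3c4_3150 and 16.5 CPM for Pp3c18_3460, was above COX11 KO in both. Pp3c15_23190 was higher in COX11 KO at ZT6, with a log2 fold change of 2.15 (SE 0.25, edgeR adjusted p = 7.51e-08), the reverse of its order at ZT0. Pp3c19_4900 had 31.5, 32, 32, 36 and 37.2 CPM in COX11 KO and 10.4, 12.4, 13.4, 15 and 19.7 CPM in NDUFA5 KO, with a log2 fold change of 1.25 (SE 0.23, edgeR adjusted p = 0.000181) and no overlap. Within letter A, with 1 library in each knockout, Pp3c4_3150, Pp3c18_3460 and Pp3c19_4900 kept their direction at ZT6 but not their call, with adjusted p of 0.195, 0.549 and 0.366.

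**Figure D5:**
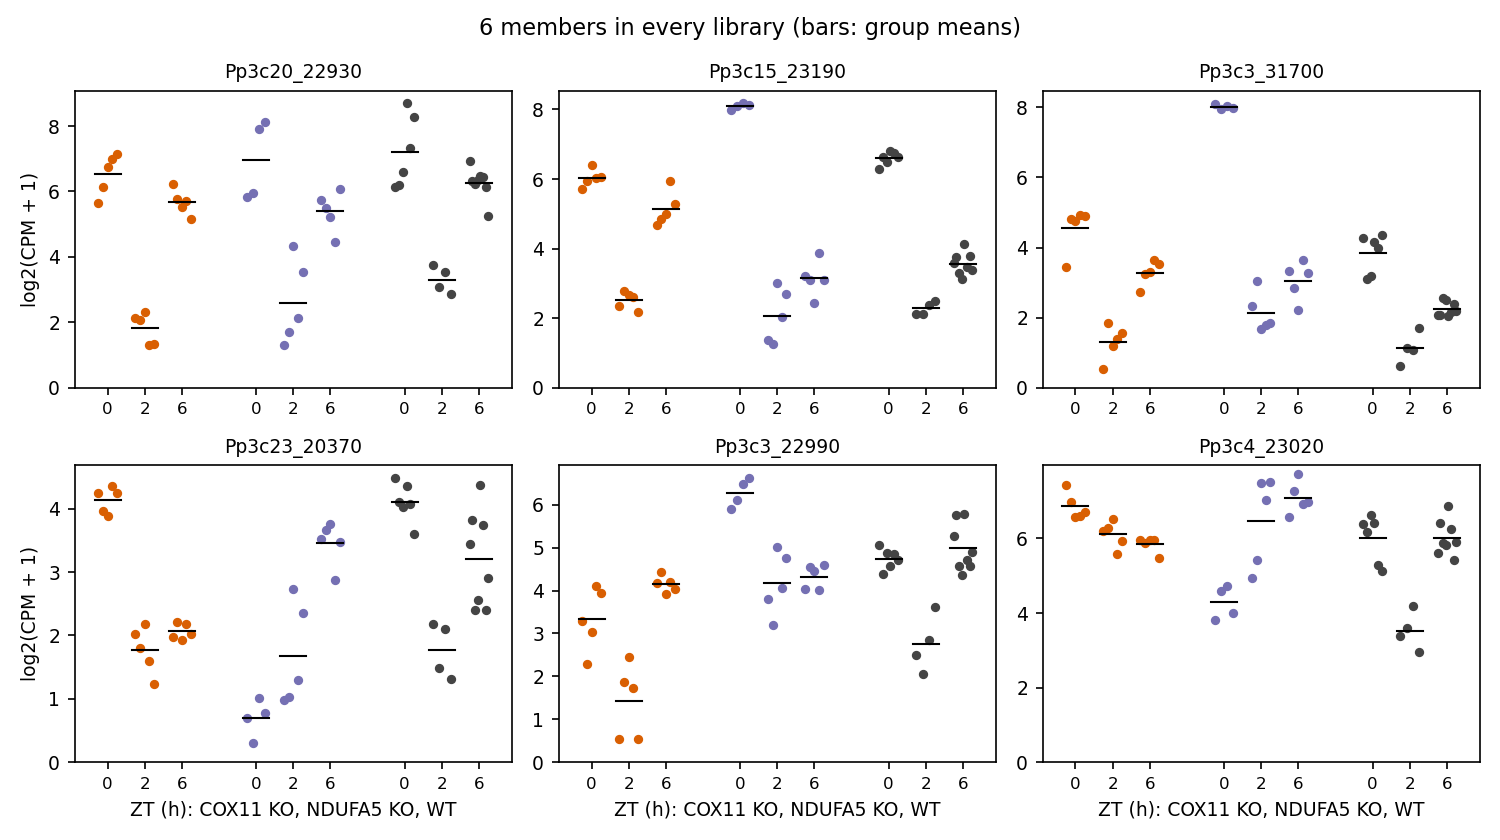
Levels of 6 members in every library as log2(CPM + 1), with CPM scaled by TMM, against zeitgeber time in COX11 KO (orange), NDUFA5 KO (violet) and WT (dark grey). Points are libraries and bars are group means. Pp3c15_23190 and Pp3c3_31700 are highest in NDUFA5 KO at ZT0, and Pp3c23_20370 and Pp3c4_23020 have in NDUFA5 KO their lowest mean of the 3 times there.

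The change after lights on itself differed between the knockouts in many members. In the test of the difference, taken as the COX11 KO change minus the NDUFA5 KO change from ZT0 to ZT2, 45 members were lower, where 18% of all genes were, and 23 were higher, where 17.5% were, with a median of -0.31 against -0.08 for all genes. This was 45.3% of members in either direction, against 35.5% of all genes. With library totals in place of TMM, 55 (36.7%) were lower and 17 (11.3%) higher, where 29.7% and 9.12% of all genes were, and the median of all genes moved to -0.38. Within letter Z, 26 (17.3%) were lower and 20 (13.3%) higher, where 9.18% and 9.46% of all genes were. Pp3c23_20370 had the most negative named difference that did not rest on a group of 1 count. Its ZT2 libraries had 1.37, 2.04, 2.48, 3.04 and 3.54 CPM in COX11 KO, so that it fell there, with a log2 fold change of -2.75 (SE 0.36, edgeR adjusted p = 3.12e-08). In NDUFA5 KO the change was 2.09 (SE 0.57, edgeR adjusted p = 0.00170), and the difference was -4.84 (SE 0.66, edgeR adjusted p = 2.07e-07). In the other direction, Pp3c3_21640 had 20.1, 20.3, 24, 24.5 and 30.2 CPM at ZT2, against 66.9, 72.3, 77.3, 78.7 and 86.1 CPM at ZT0, in COX11 KO. NDUFA5 KO had 9.52, 12.3, 15, 20.2 and 21.2 CPM at ZT2, against 188, 361, 392 and 405 CPM at ZT0. It fell in both, more in NDUFA5 KO, where the night level was higher, and the difference was 2.74 (SE 0.26, edgeR adjusted p = 3.30e-11). Pp3c26_7990 had 2.48, 2.74, 5.47, 5.846 and 6.24 CPM at ZT2, against 11.2, 12.7, 13.6, 15.8 and 16.5 CPM at ZT0, in COX11 KO. NDUFA5 KO had 1.27, 1.63, 2.05, 4.51 and 4.83 CPM at ZT2, against 27.8, 53.1, 55.8 and 82 CPM at ZT0. The fall was again larger in NDUFA5 KO, with a difference of 2.62 (SE 0.45, edgeR adjusted p = 1.38e-05), and WT at ZT0 lay between 39.5 and 129 with a median of 91.4 CPM.

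The change from ZT2 to ZT6 differed between the knockouts in fewer members. The COX11 KO change minus the NDUFA5 KO change was higher in 24 members, where 10.4% of all genes were, and lower in 16, where 8.64% were, with a median of -0.05. Together these were 26.7% of members, against 19.1% of all genes. With library totals, 19 were higher and 20 lower, where 8.49% and 9.97% of all genes were. Within letter Z, 6 were higher (4%) and 9 lower (6%), where 2.62% and 2.24% of all genes were. Within letter A, 9 were higher (6%) and 5 lower (3.33%), where 3.83% and 3.27% were. Pp3c6_5150 was lower: COX11 KO had 5.74, 10.1, 14.4, 14.8 and 21.2 CPM at ZT6 and NDUFA5 KO had 4.86, 7.51, 8.77, 9.84 and 11.6 CPM, beside the ZT2 values given above. The mean was lower at ZT6 than at ZT2 in COX11 KO and higher in NDUFA5 KO, with overlapping libraries in each, and the difference was -2.35 (SE 0.58, edgeR adjusted p = 0.00293). Pp3c12_14890 had 7.91, 8.10, 8.70, 9.75 and 10.4 CPM at ZT6, against 2.897, 4.22, 4.57, 4.68 and 5.77 CPM at ZT2, in COX11 KO. NDUFA5 KO had 3.13, 7.78, 10.7, 11.3 and 12.6 CPM at ZT6, against 0.725, 0.747, 0.978, 1.73 and 2.09 CPM at ZT2. ZT6 was above ZT2 with no overlap in both knockouts, the NDUFA5 KO libraries were the lower at ZT2, and the difference was -1.81 (SE 0.42, edgeR adjusted p = 0.00184). Pp3c3_22990 and Pp3c5_16470 were higher. Pp3c3_22990 had 14.2, 15.5, 17.1, 17.3 and 20.5 CPM at ZT6 in COX11 KO and 15.2, 15.3, 20.8, 22.5 and 23 CPM in NDUFA5 KO, so the knockouts overlapped at ZT6 after differing at ZT2, and the difference was 2.98 (SE 0.54, edgeR adjusted p = 8.01e-05). Pp3c5_16470 had 5.27, 6.26, 7.27, 8.35 and 14.6 CPM at ZT6, against 0.609, 0.728, 0.911, 1.02 and 1.93 CPM at ZT2, in COX11 KO. NDUFA5 KO had 3.95, 4.47, 5.12, 7.95 and 9.43 CPM at ZT6, against 0.966, 2.42, 6.68, 7.47 and 8.71 CPM at ZT2. The times did not overlap in COX11 KO and overlapped in NDUFA5 KO, and the difference was 2.75 (SE 0.61, edgeR adjusted p = 0.00106). None of these 4 differences kept its call within letter A, where line and time cannot be told apart in NDUFA5 KO. They were -0.59 for Pp3c6_5150, -1.77 for Pp3c12_14890, 2.23 for Pp3c3_22990 and 1.05 for Pp3c5_16470 there.

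Lines of a genotype were compared as an average over the times, so differences of opposite sign at different times cancel. Between COX11 KO lines 150 and 152, averaged over the times, edgeR called 0 members and 0% of all genes. At an unadjusted p under 0.05 there were 7 members, 4.67% of them, where 2.76% of all genes were, and DESeq2 called 0. Between NDUFA5 KO lines 46 and 48, 5 members were lower in line 46, where 1.31% of all genes were, and 1 was higher, where 1.72% were. The 6 members are 4% of the 150, near the 3.03% called among all genes. At an unadjusted p under 0.05 there were 35 members, 23.3% of them, where 16.8% of all genes were. DESeq2 called 14 members, 9.33%, where it called 4.67% of all genes. No member was called when NDUFA5 KO library 46-3 at ZT6, for which the title gives line 46 and another label line 48, was read as line 48, where 0.363% of all genes were. Pp3c26_9830 was lower in line 46, with a log2 fold change of -2.07 (SE 0.59, edgeR adjusted p = 0.0417), and Pp3c5_19920 was higher, with 0.58 (SE 0.15, edgeR adjusted p = 0.0217). Pp3c26_9830 lost its call, with values of -2.20 to -1.69, without 46-2, 48-1 or 48-2 at ZT0, without 46-2, 46-3, 48-1 or 48-2 at ZT2, and without 46-3 or 48-1 at ZT6. Pp3c5_19920 lost its call, with 0.50 to 0.58, without 46-2, 48-1 or 48-2 at ZT0, without 46-1, 48-1 or 48-2 at ZT2, and without 46-3 or 48-1 at ZT6. Pp3c5_19920 had 77.1, 46.0 and 64.2 CPM in line 46 at ZT2 and 23.3 and 21.4 CPM in line 48, while at ZT0 line 46 had 67.8 and 80.3 CPM and line 48 had 83.7 and 92.9 CPM. The lines were thus apart at ZT2, where line and letter coincide, and were in the other order at ZT0. At ZT2 the line 46 libraries of NDUFA5 KO all lay above those of line 48 in 38 members, where 24.3% of all genes did, and all below in 46, where 25.4% did. This split was therefore not particular to the members, and line and letter cannot be told apart there.

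Beside WT, which chose the members, the knockout levels are given with no test. In COX11 KO the median difference from WT on the log2(CPM + 1) scale was -0.35 at ZT0, then -0.16 at ZT2 and -0.38 at ZT6. The NDUFA5 KO medians were -0.68, then -0.21 and -0.41. Over all tested genes these medians lay between -0.02 and 0.02. In COX11 KO 109 members stood below WT at ZT0, 81 at ZT2 and 109 at ZT6, and in NDUFA5 KO 111, 88 and 111. Levels of at least 1 below WT were most frequent in NDUFA5 KO at ZT0, in 65 members, against 26 in COX11 KO. Shares of all genes below WT were not computed, so these counts are no result about the members. At ZT0, 60% of all genes were called between the knockouts. Genes were taken for high WT levels at ZT0 and ZT6, so lower knockout values at those times are not independent of the choice.

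A few members were near 0 in a knockout. Pp3c5_3169, chosen after its values were seen, had 0 counts over the COX11 KO libraries at ZT0, 0 at ZT2 and 13 at ZT6, and 2, 2 and 5 counts in NDUFA5 KO, where WT had 1223, 297 and 1095. No trough can be read for it in the knockouts at this depth. It is among 4 members with no call in any time contrast of either knockout, the others being Pp3c9_40, Pp3c17_13150 and Pp3c17_14510. The last member by rank, Pp3c26_10860, had 25.4, 27.5, 27.7, 29.3 and 31.2 CPM at ZT0, 21.7, 22.3, 23, 24.8 and 25.3 CPM at ZT2 and 33.3, 35.6, 37.3, 37.4 and 47 CPM at ZT6 in COX11 KO. In NDUFA5 KO it had 11, 11.5, 11.7 and 14 CPM at ZT0, 15.8, 18.5, 19.4, 20.9 and 22.4 CPM at ZT2 and 29, 29, 33.9, 35.3 and 36.3 CPM at ZT6. It kept a shallow trough in COX11 KO and was lowest at ZT0 in NDUFA5 KO, with no overlap between the times.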

How the data were processed

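The deposited table holds estimated counts for each gene in every library, not normalized. The submitters' processing notes name Bowtie2 2.2.5, SAMtools 1.6 and HTSeq 2.0.2. The sources used here give neither the genome build nor the annotation. Of the values, 2.35% are fractional (more than 1e-06 from a whole number), so counts were rounded to whole numbers for the test, which had been written for raw counts. The table has 57 columns, of which 10 match no sample used here and were not used. The 5 summary lines, 26.2% to 39.9% of a library's counts, were left out. Groups, lines and replicates follow the sample titles.

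Under R 4.3.3, edgeR 4.0.16 (limma 3.58.1) was fitted to all 47 libraries, with 1 mean for each of the 9 groups, after filterByExpr (18460 genes, all 150 members among them) and TMM scaling. Quasi-likelihood F tests were adjusted by Benjamini-Hochberg within each contrast over all genes tested, at 0.05. Standard errors were derived from the F statistic. The common dispersion gave a biological coefficient of variation of 21.8%. The line contrasts used a fit with 1 mean per line at each time. The code was tested on simulated counts. Ratios against a group of 1 to 3 counts carry exact 95% binomial (Clopper-Pearson) intervals, which cover counting error only. DESeq2 1.42.0, other scalings, no filter on low counts, the letter as a covariate, fits within a letter, a replicate block and the omission of each library were tried.

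The members and the tests were chosen with earlier results of these data known. Named genes are, in each contrast, the 2 members per direction (1 between lines) with the largest log2 fold change among those called. Only members with average log2 CPM above 1 were eligible. Between 2 groups, all libraries of the first also had to lie beyond the other group's mean in the same direction. This was not required for a difference in time change or between lines. Added to the named genes are the 2 members with the largest smaller WT difference, the 2 most abundant over WT, and ranks 150 and 151. None of the IDs was found in the reference gene table (0 matches), so no gene list, marker or sequence is reported.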

Additional observations from a re-analysis of the deposited data

Results flagged for a closer look

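In 279 groups of 4 to 10 libraries of the named members, 11 held a library far from the others, where chance flags about 1 in 20. Values are CPM scaled by TMM. Low libraries were NDUFA5 KO 46-3 at ZT6 for Pp3c10_18330, with 179 CPM against 371 to 463 in the others, and NDUFA5 KO 46-1 at ZT0 for Pp3c3_21640, with 188 CPM against 361 to 405. COX11 KO 152-1 at ZT0 was low for Pp3c3_31700, with 9.96 CPM against 26 to 29.3, and COX11 KO 150-2 was low at ZT6 for Pp3c4_23020, with 43.4 CPM against 58.3 to 61.6, and at ZT0 for Pp3c9_7820, with 30.7 CPM against 44.0 to 47.8. In WT at ZT6, library 5 was low for Pp3c12_14890, with 5.37 CPM against 9.76 to 16.1, and library 8 for Pp3c20_22930, with 36.8 CPM against 69.4 to 121.8. High libraries were NDUFA5 KO 46-2 at ZT6 for Pp3c24_6320, with 359 CPM against 287 to 306, and WT library 4 at ZT0 for Pp3c26_9830, with 50.2 CPM against 2.36 to 7.18. NDUFA5 KO 46-1 at ZT0 for Pp3c1_13060 (0.208 CPM) and COX11 KO 152-2 at ZT6 for Pp3c4_16570 (0.165 CPM) each hold the only count of a group otherwise at 0.

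Members were named for a difference in time change only if it was called, so passing the threshold was fixed by the naming. The tested difference between the knockouts in a time change, COX11 KO minus NDUFA5 KO on the log2 scale, was past the threshold for 8 named results. From ZT0 to ZT2 it was -8.01 for Pp3c1_13060, a fitted value that rests on 1 count and is no bound, -4.84 for Pp3c23_20370, 2.74 for Pp3c3_21640 and 2.62 for Pp3c26_7990. From ZT2 to ZT6 it was -2.35 for Pp3c6_5150, -1.81 for Pp3c12_14890, 2.98 for Pp3c3_22990 and 2.75 for Pp3c5_16470.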

How the results depend on the processing

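Shares of members called stayed within 1.5 times, under every alternative run, except as follows. Within letter Z, where COX11 KO at ZT2 has only library 150-3, 61.3% of members were called at ZT2 against ZT0 and 31.3% at ZT6 against ZT2 in COX11 KO, 15.3% between the knockouts at ZT2, and 10% for the difference in the ZT2 to ZT6 change. Within letter A, 0.667% were called between the knockouts at ZT6 and 9.33% for that difference. These fits hold fewer libraries, and in NDUFA5 KO within letter A the line changes between ZT2 and ZT6. For the next values the cause was not tested. For lines 46 and 48 the share was 0% with 46-3 at ZT6 read as line 48 and 9.33% with DESeq2, and it lay between 0.667% and 6.67% with a library left out. It moved by over 1.5 times without 46-2, 48-1 or 48-2 at ZT0, 46-3 or 48-1 at ZT2, and 46-1, 46-3 or 48-1 at ZT6. At a least difference of 1 in place of 0.5, the trough was met by 71 members in COX11 KO and 45 in NDUFA5 KO. Line contrasts could not be fitted within a letter.

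Of the refits of named genes, 31 lost a call and 0 changed direction. These were 19 in the line contrast or its other reading, 1 without a library (Pp3c26_9830, above) and 11 within a letter, where groups fell to 1 library. Those within a letter include the 4 differences named for the ZT2 to ZT6 change and Pp3c10_13170 in NDUFA5 KO, all within letter A. A replicate block, on numbers whose same-numbered libraries correlated at -0.27 to 0.49 (median -0.01 over 26 pairs, 5 over 0.1) and so do not pair the samples, gave 94.7% of members at ZT2 against ZT0 in COX11 KO and 78% in NDUFA5 KO, and moved no share by 1.5 times. Choosing members from TMM values kept 148 of the 150, a pseudocount of 0.5 kept 143, and leaving out a WT library kept 131 to 147. Counts that share reads were taken once after the data had been seen. Depth limits the members near 0.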
